A study of Mus musculus with 14 samples.

Results

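The genes described here are 10 textbook markers of the cells that build blood vessels: Pecam1, Cdh5, Kdr, Flt1, Tek, Tie1 and Cldn5 of endothelial cells, and Pdgfrb, Cspg4 and Rgs5 of pericytes. They were taken by name from a deposited table of 20902 genes, and all 10 are in it. RNA was sequenced in 14 libraries of C57BL/6 mice. Of these, 9 came from retinal microglia of Cx3cr1-GFP mice, in which microglia carry green fluorescent protein (GFP), and each of the 3 ages has 3 of them: day 16.5 of embryonic life (e16.5), day 7 after birth (P7) and adulthood (P60). Whole retina of wild-type (WT) mice gave the remaining 5, namely 3 of e16.5, taken from central retina, and a single library for P7 and for P60.

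Each microglia library was a pool of animals, sorted as GFP+, CD45+, CCR2- cells, a gate that was not aimed at vascular cells, and its RNA was amplified with a kit for very small inputs. RNA of whole retina came from a different extraction kit, and the sources used here do not give the kit for its libraries. Tissue, sorting, genotype and RNA kit thus differ together between microglia and whole retina and cannot be told apart. The replicates of whole retina at e16.5 are known only by number, so that p-values against them measure the spread between these libraries, which may be technical.

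Blood vessels are tubes of endothelial cells wrapped by pericytes. Vascular endothelial growth factor (VEGF) drives endothelial growth through the receptor Kdr (VEGFR2), while Flt1 (VEGFR1) binds VEGF tightly and signals weakly. Tek (Tie2) is the receptor of the angiopoietins and Tie1 its partner receptor. Cdh5 (VE-cadherin), Pecam1 (CD31) and the tight junction protein Cldn5 join endothelial cells to each other. Pericytes follow the endothelial ligand Pdgfb through Pdgfrb, and they carry the proteoglycan Cspg4 (NG2) and the G protein regulator Rgs5. In the mouse, the vessels of the retina itself grow in after birth, first as a surface layer and then as deeper layers. Several of these genes are also known outside vessels: Pecam1 on leukocytes and platelets, Kdr in retinal neurons and progenitors, Flt1 in monocytes and macrophages, and Cspg4 in oligodendrocyte precursors.

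The libraries of microglia held from 8996298 to 17446905 counts and those of whole retina from 20469100 to 24361772. The summed level of 9 microglial markers was 11030 to 20060 CPM (counts scaled to library size) in the sorted libraries and 55.5 to 71.8 CPM in whole retina. The endothelial markers did not go together in the sorted libraries or in the embryo. Tek had 0 counts in all 3 microglia libraries of e16.5 and Cldn5 in all 3 of P7, while Pecam1 was at 75.0 to 83.2 CPM in microglia of e16.5. Whole retina of e16.5 held only 8 counts of Cdh5 over 3 libraries, beside 288 to 352 CPM of Kdr.

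The upstream sequences of 4 of the genes are shown because their levels in whole retina took 2 courses between e16.5 and P7: Rgs5 and Tek were far higher at P7, whereas Kdr and Cldn5 stayed within 2-fold. Each is the 250 bases before the RefSeq start of the gene (build GRCm38.p6), written 5′ to 3′ on the gene's strand. Capitals mark GGAA and its reverse complement TTCC, the core letters bound by ETS factors, which are known regulators of endothelial genes. The windows lie at chr1:169655251-169655500 (plus strand) for Rgs5, chr4:94739039-94739288 (plus strand) for Tek, chr5:75978456-75978705 (minus strand) for Kdr and chr16:18776597-18776846 (plus strand) for Cldn5.
Rgs5: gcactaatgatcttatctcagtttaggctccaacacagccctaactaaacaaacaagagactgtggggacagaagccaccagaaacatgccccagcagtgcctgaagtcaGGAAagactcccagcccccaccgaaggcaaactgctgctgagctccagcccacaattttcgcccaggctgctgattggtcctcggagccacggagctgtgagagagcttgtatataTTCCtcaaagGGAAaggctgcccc
Tek: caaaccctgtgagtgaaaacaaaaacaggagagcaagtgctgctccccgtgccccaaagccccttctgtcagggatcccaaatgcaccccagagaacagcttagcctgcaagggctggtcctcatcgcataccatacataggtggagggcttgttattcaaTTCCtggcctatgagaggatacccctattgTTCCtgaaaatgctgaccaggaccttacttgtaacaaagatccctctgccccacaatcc
Kdr: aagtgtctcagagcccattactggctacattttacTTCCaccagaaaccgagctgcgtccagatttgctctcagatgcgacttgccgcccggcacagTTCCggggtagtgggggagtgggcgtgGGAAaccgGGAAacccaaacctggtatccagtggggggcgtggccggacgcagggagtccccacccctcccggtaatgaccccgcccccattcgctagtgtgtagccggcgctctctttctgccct
Cldn5: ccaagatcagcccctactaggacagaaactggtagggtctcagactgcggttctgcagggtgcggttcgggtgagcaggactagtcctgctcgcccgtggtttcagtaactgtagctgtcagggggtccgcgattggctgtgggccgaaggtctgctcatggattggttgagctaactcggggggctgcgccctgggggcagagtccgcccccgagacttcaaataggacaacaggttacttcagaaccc
Of the 10 genes, 7 were matched in the RefSeq promoter table. Searched on both strands, these 4 letters were found 3 times in the window of Rgs5, 2 times in that of Tek, 4 times in that of Kdr and not in that of Cldn5. The windows of Flt1, Cspg4 and Tie1 held 4, 1 and 7 matches. Of 32851 RefSeq windows of the same length, 93.4% held at least 1 match, with a median of 3. Of the genes far higher at P7, Rgs5 and Tek thus held no more matches than Kdr, while Tie1 held 7. Of all windows, 3.82% held 7 or more. A match describes letters only.

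In whole retina, 7 of the 10 genes stood more than 2-fold higher at P7 than at e16.5, as did 15.3% of 20156 genes with a count, and none stood more than 2-fold lower, against 11.0% of genes. The pericyte gene Rgs5, the angiopoietin receptor pair Tek and Tie1, the junction gene Cdh5, the VEGF-binding Flt1, Pecam1 and Cspg4 were the 7, and Kdr, Cldn5 and Pdgfrb were the 3 within 2-fold. Ratios here are of CPM scaled with TMM factors, with 0.5 CPM added. Their median over the 10 genes was 2.27 on the log2 scale, beside 0.09 over all genes. P7 and P60 have 1 whole retina library each, so no test was made and these are differences between libraries. In such bulk samples, fewer cells of a type and less RNA per cell cannot be told apart, and the e16.5 samples were of central retina only.

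**Figure D1:**
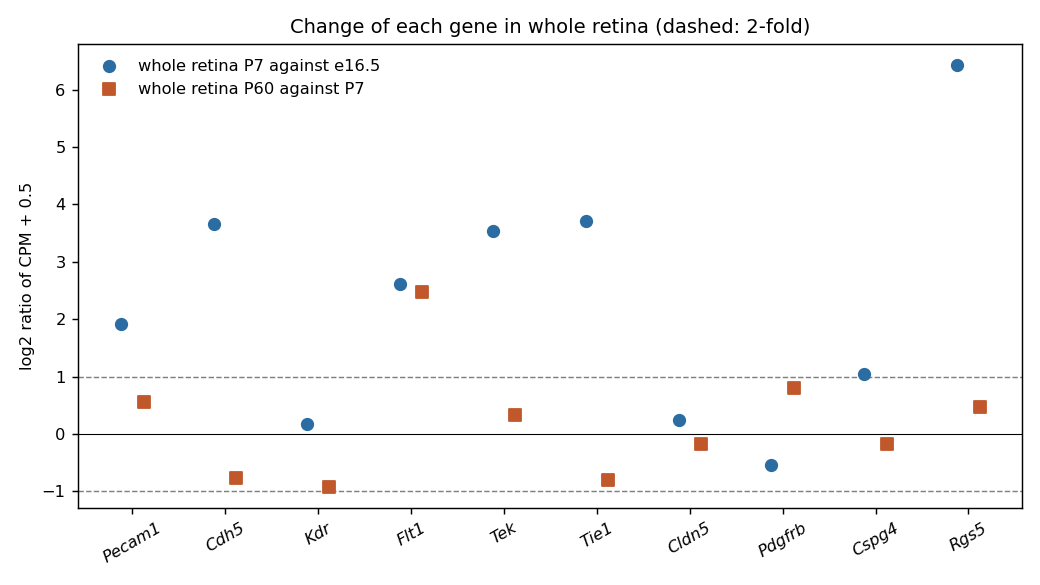
Log2 ratio of CPM + 0.5 in whole retina for each of the 10 genes, with P7 against e16.5 as circles and P60 against P7 as squares; dashed lines mark 2-fold. The circles of 7 genes lie above the upper line, from 1.05 for Cspg4 to 6.43 for Rgs5, while Flt1 is the only square above it.

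The VEGF receptors took different courses. Kdr measured 352, 342 and 288 CPM in the 3 whole retina libraries of e16.5, 369 CPM at P7 and 195 CPM at P60. Its level at P7 was 1.13 times the e16.5 mean (95% exact binomial interval 1.10 to 1.15, which like all such intervals here covers counting error only), and at P60 0.529 times that at P7 (0.511 to 0.548). Flt1 measured 2.42, 1.66 and 2.46 CPM at e16.5, 15.9 CPM at P7 and 90.5 CPM at P60. Flt1 was thus 7.32 times higher at P7 than at e16.5 (6.02 to 8.96) and 5.69 times higher again at P60 (5.14 to 6.32). It was the only one of the 10 genes past 2-fold between P7 and P60, a step at which 8.48% of 20054 genes stood higher and 8.77% lower by that much.

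The angiopoietin receptors were close to 0 in the embryo and present at both later ages. Tek measured 0.303, 0.190 and 0.147 CPM at e16.5, from 13 counts in all, 7.76 CPM at P7 and 9.90 CPM at P60. Tie1, with 11 counts over the same 3 libraries, measured 0.353, 0.0949 and 0.0983 CPM, then 8.40 CPM at P7 and 4.63 CPM at P60. The P7 level was 36.5 times that of e16.5 for Tek (20.9 to 69.7) and 46.8 times for Tie1 (25.7 to 94.9). From P7 to P60 the partners parted, Tek at 1.28 times (1.06 to 1.54) and Tie1 at 0.551 times (0.435 to 0.695) the P7 level, both within 2-fold.

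Of the junction and adhesion genes, Cdh5 had the largest step. It measured 0.0505, 0.237 and 0.0983 CPM at e16.5, 7.44 CPM at P7 and 4.16 CPM at P60, so that P7 stood 56.9 times above e16.5 (28.4 to 134, the wide interval coming from the 8 embryonic counts). Pecam1 was 3.83, 4.46 and 1.77 CPM at e16.5, 14.1 CPM at P7 and 20.9 CPM at P60. Its P7 library lay above all 3 of e16.5, by 4.20 times their mean (3.54 to 4.99). Cldn5, in contrast, measured 10.7, 10.6 and 11.4 CPM at e16.5, 13.02 CPM at P7 and 11.5 CPM at P60. Its ratio of P7 to e16.5 was 1.2 (1.05 to 1.36), and the tight junction gene was therefore already near its adult level in the embryo, when Cdh5 was at its lowest.

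The pericyte genes also split. Rgs5 measured 0.151, 0.427 and 0.491 CPM at e16.5, 73.3 CPM at P7 and 101.3 CPM at P60. With 22 counts over 3 libraries at e16.5 and 2061 in the P7 library, its ratio was 204 (134 to 326), the highest of the 10 genes. Pdgfrb measured 15.2, 9.35 and 10.4 CPM at e16.5, 7.83 CPM at P7 and 14.1 CPM at P60, so the P7 library was below all 3 of e16.5 at 0.676 times their mean (0.579 to 0.788). Cspg4 stayed low, at 1.36, 1.33 and 1.13 CPM at e16.5, 3.17 CPM at P7 and 2.76 CPM at P60. Its log2 ratio of 1.05 lay just past 2-fold, and without 1 of the e16.5 libraries the number of genes past 2-fold was 6 in place of 7.

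On the deposited FPKM scale, which divides by length and allows genes to be compared, Kdr had the highest level of the 10 genes in whole retina at each age, at 49.8 ± 5.19 FPKM (SD, n = 3) at e16.5, 55.8 FPKM at P7 and 31.3 FPKM at P60. Next at e16.5 came Cldn5 at 8.02 ± 0.308 FPKM. Pdgfrb at 1.93 ± 0.504 FPKM and Pecam1 at 1.53 ± 0.536 FPKM did not differ beyond their spread. Flt1 at 0.429 ± 0.0898 FPKM and Cspg4 at 0.199 ± 0.0235 FPKM followed. Cdh5, Rgs5, Tie1 and Tek lay between 0.152 and 0.0465 FPKM, each within 1 SD of the neighbour next in order. By P7 Rgs5 was second at 16.0 FPKM and Cspg4 last at 0.374 FPKM. At P60 the order ran from Kdr through Rgs5 (24.0 FPKM), Flt1 (18.1 FPKM), Pecam1 (10.3 FPKM) and Cldn5 (8.90 FPKM) to Cspg4 (0.543 FPKM).

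**Figure D2:**
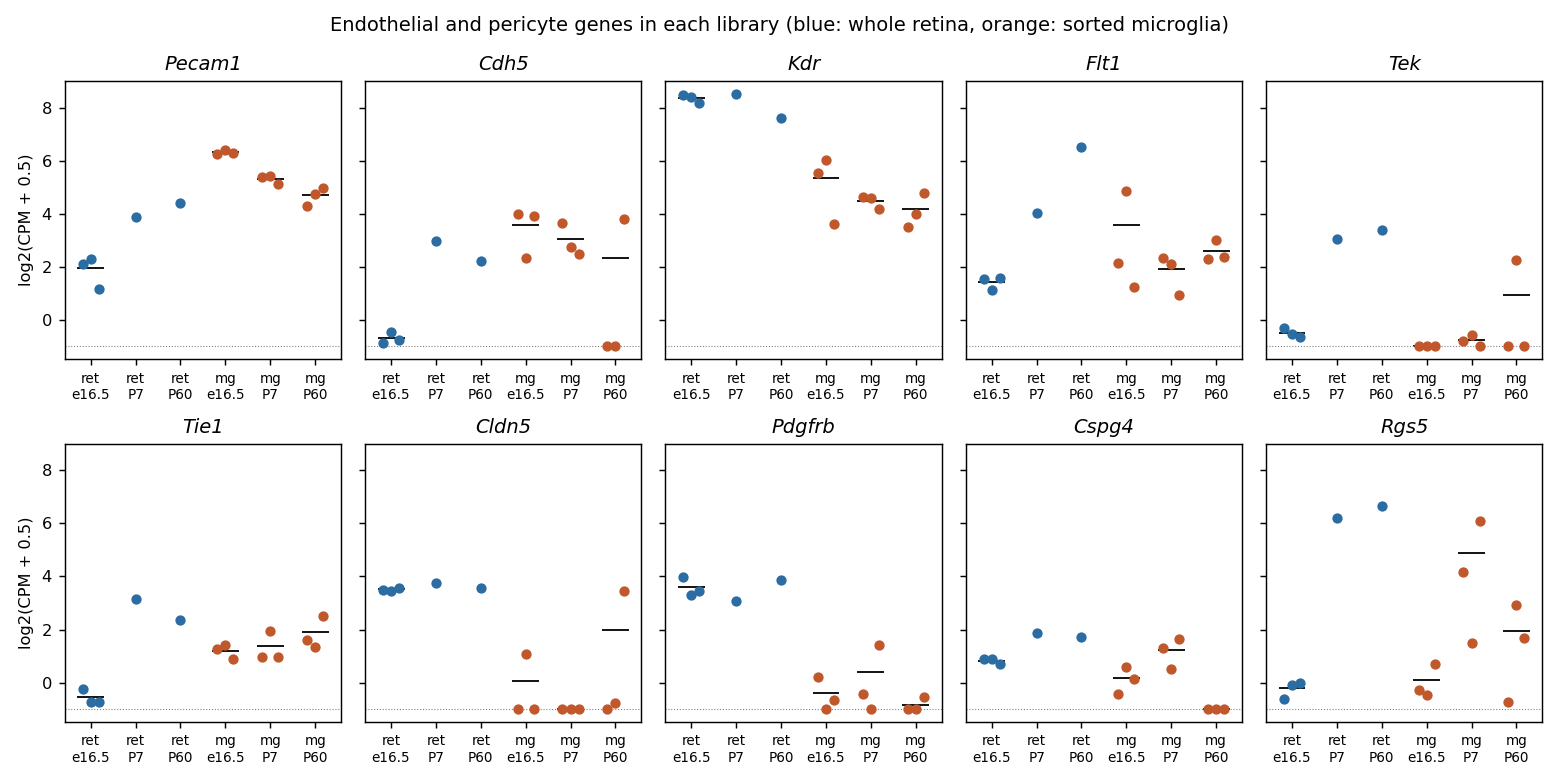
Level of each of the 10 genes in every library, as log2 of CPM + 0.5, with whole retina (ret) in blue and sorted microglia (mg) in orange at e16.5, P7 and P60; bars are at the mean CPM of 3 libraries and the dotted line marks 0 counts. Pecam1 is highest in microglia of e16.5, from 75.0 to 83.2 CPM, whereas Kdr lies between 195 and 369 CPM in the whole retina libraries and between 10.8 and 64.5 CPM in the microglia libraries.

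Other genes of the vascular system were read from 5 lists of 76 genes in all, none of them among the 10. Of 18 endothelial identity and junction genes, 17 stood more than 2-fold higher in whole retina at P7 than at e16.5 and none lower, with a median log2 ratio of 1.95. Among them were von Willebrand factor Vwf, from 0.497 to 11.2 CPM, the junction protein Esam, from 0.231 to 5.37 CPM, and Cd34, from 2.21 to 16.9 CPM. The other lists were mixed. Of 16 receptors and co-receptors 7 were higher and 2 lower: the apelin receptor Aplnr went from 0.0495 to 9.86 CPM, the phosphatase Ptprb, which acts on Tek, from 0.428 to 9.39 CPM and endoglin (Eng) from 0.115 to 4.80 CPM, against Lrp5 from 100.2 to 30.4 CPM and S1pr1 from 22.2 to 7.37 CPM. Fzd4, the receptor of norrin in retinal vessels, was within 2-fold (3.94 and 6.55 CPM).

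Of 18 pericyte and smooth muscle genes, 7 were higher and 2 lower at P7. The potassium channel pair of pericytes, Abcc9 and Kcnj8, went from 0.299 to 6.58 CPM and from 0.0496 to 1.96 CPM, and Vtn (vitronectin) from 4.18 to 22.7 CPM. Notch3 went the other way, from 30.3 to 5.69 CPM, as did Ndufa4l2, from 103.7 to 48.6 CPM. At e16.5 both stood far above the pericyte gene Rgs5, at a mean of 0.357 CPM. Which cells of whole retina carried the listed genes was not tested. Among 11 genes of the blood-retina barrier and transport, 5 were higher and 2 lower. Caveolin (Cav1) went from 0.605 to 7.33 CPM, the efflux pump Abcb1a from 0.0821 to 3.13 CPM and Ocln from 0.281 to 2.42 CPM, while the glucose transporter Slc2a1 went from 562 to 203 CPM and Itm2a from 110.4 to 23.3 CPM.

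The ligands of the receptors did not share 1 course. Of 13, 4 were higher and 2 lower at P7. Vegfa, which binds Kdr and Flt1, measured 59.4 CPM at e16.5, 121.5 CPM at P7 and 91.5 CPM at P60. Pgf, a ligand of Flt1 alone, measured 3.73, 2.13 and 0.255 CPM at these ages. Of the ligands of Tek, Angpt1 measured 17.5, 7.69 and 2.68 CPM and Angpt2 8.61, 17.2 and 3.74 CPM. Pdgfb, the ligand of Pdgfrb, went from 0.489 CPM at e16.5 to 4.52 CPM at P7 and 4.12 CPM at P60, while norrin (Ndp) measured 3.90, 5.05 and 4.97 CPM. The Notch ligands Jag1 and Dll4 went apart at P7, Jag1 from 8.48 to 30.6 CPM and Dll4 from 36.0 to 7.01 CPM. The Aplnr ligand Apln went from 3.13 to 6.97 CPM.

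**Figure D3:**
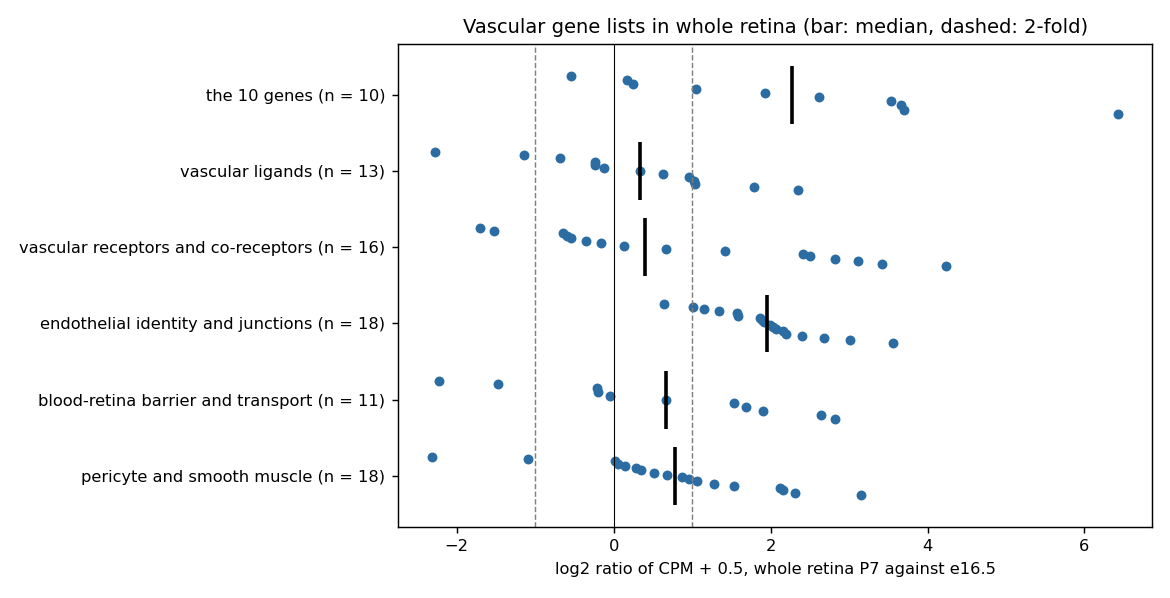
Log2 ratio of CPM + 0.5 in whole retina, P7 against e16.5, for the 10 genes and for each gene of the 5 vascular lists; each point is a gene, bars are medians and dashed lines mark 2-fold. The endothelial identity list lies almost wholly above 2-fold, with a median of 1.95, whereas the ligand and receptor lists reach both sides.

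Between P7 and P60 the lists reached both sides. Of the 18 endothelial identity genes, 2 were more than 2-fold higher, Esam at 14.6 CPM and Nos3 (endothelial nitric oxide synthase) at 8.58 CPM, and 1 lower, Ecscr, at 0.510 CPM. Receptors split into 3 higher (S1pr1, Fzd4 and Ptprb, the last from 9.39 to 24.8 CPM) and 5 lower, among them Aplnr, which was back at 0.0425 CPM from 1 count. Of the barrier genes, 4 were higher, with Cav1 at 87.4 CPM and the organic anion transporters Slco1a4 and Slco1c1 at 26.0 and 16.7 CPM, and 1 lower, Itm2a at 8.75 CPM. The pericyte and smooth muscle list had 4 higher and 3 lower, with Vtn at 953 CPM and Ndufa4l2 at 1.19 CPM at the extremes. In the same P60 library Rgs5 was at 101.3 CPM, and the smooth muscle genes Myh11 and Acta2 at 3.06 CPM each. Over the longer interval, 6 of the 10 genes stood more than 2-fold higher at P60 than at e16.5 (20.7% of 20197 genes did) and none more than 2-fold lower (18.6% of genes did).

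Sorted microglia were compared with whole retina at e16.5, the age at which both have 3 libraries. Pecam1, Cdh5 and Tie1 were higher in the microglia libraries and Kdr and Pdgfrb lower, by edgeR's quasi-likelihood test with Benjamini-Hochberg adjustment over 16140 genes at 0.05. These are 5 of the 8 genes tested, with Tek and Rgs5 too low to enter. Cdh5 and Tie1, with at most 5 and 7 counts in a library of whole retina, entered through the microglia libraries alone. Pdgfrb, with 8, 0 and 2 counts in microglia, entered through the whole retina libraries. The direction of each of these genes was thus set by the filter. Among all genes tested 63.2% passed, 33.1% higher and 30.1% lower, so the share among the 8 is near the background. The median log2 fold change of all genes was -0.13, and -0.51 when only total counts were used for scaling. The calls and directions of these 5 genes held under that scaling.

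Pecam1 measured 75.0, 83.2 and 78.6 CPM in microglia of e16.5 beside 3.83, 4.46 and 1.77 CPM in whole retina, so the groups were far from overlapping. Its log2 fold change was 4.92 (SE 0.407, adjusted p = 9.968e-05 with edgeR). Cdh5 measured 15.3, 4.52 and 14.5 CPM in microglia, against at most 0.237 CPM in whole retina (log2 fold change 6.74, SE 0.871, edgeR adjusted p = 0.0006733). Tie1 was low in both, at 1.88, 2.15 and 1.35 CPM in microglia and at most 0.353 CPM in whole retina (3.61, SE 0.657, edgeR adjusted p = 0.002746). Beside these, the summed level of 4 platelet markers was 3.45 to 6.47 CPM in microglia and 10.3 to 12.9 CPM in whole retina, that of 5 markers of border-associated macrophages 28.3 to 80.5 CPM against 0.902 to 1.87 CPM, and that of the 3 pericyte genes 1.23 to 1.89 CPM against 11.1 to 16.7 CPM. The platelet sum of whole retina was nearly all Gp1bb (9.96 to 12.5 CPM); Itga2b was at 2.13 to 4.17 CPM in microglia and 0.252 to 0.344 CPM in whole retina, and Ppbp and Gp9 were at 0 in 2 of the 3 microglia libraries. The part of such cells in these levels was not tested.

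Kdr measured 45.9, 64.5 and 11.8 CPM in microglia, all below whole retina (288 to 352 CPM). Its log2 fold change was -2.63 (SE 0.568, edgeR adjusted p = 0.005805). Pdgfrb measured 0.655, 0 and 0.135 CPM beside 9.35 to 15.2 CPM (-5.10, SE 1.091, edgeR adjusted p = 0.005644). Flt1 showed 1 library apart: 28.5 CPM in replicate 2 of the microglia, and 3.93 and 1.88 CPM in the others. Of these, the 1.88 CPM lies within the 1.66 to 2.46 CPM of whole retina and the 3.93 CPM above it. Its adjusted p was 0.05255 with edgeR and 0.01194 with DESeq2. Without replicate 2 its log2 fold change was 0.69 in place of 2.76.

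Cldn5 was detected in the same replicate 2 alone, at 1.61 CPM from 21 counts, while whole retina held 10.6 to 11.4 CPM. Its adjusted p was 0.05232 with edgeR, 0.02029 with DESeq2 and 0.004623 with limma-voom. Cspg4 lay at 0.246, 0.997 and 0.606 CPM in microglia and 1.13 to 1.36 CPM in whole retina (edgeR adjusted p = 0.3236). In 7 of the 8 tested genes, all but Flt1, the ranges of microglia and whole retina were separate, as for 78.4% of genes tested. Of the 2 untested genes, Tek had no counts in microglia and 3 to 6 per library in whole retina, and Rgs5 lay between 0.151 and 1.14 CPM in all 6 libraries.

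Among the vascular ligands at e16.5, Pdgfb was higher in microglia, at 26.8 CPM against 0.489 CPM (log2 fold change 6.12, edgeR adjusted p = 8.057e-05), as was Tgfb1, at 85.4 against 0.329 CPM (8.36, edgeR adjusted p = 1.345e-05). These were 2 of 12 tested ligands, and 6 were lower, among them Pgf, with no counts in microglia and 3.73 CPM in whole retina (edgeR adjusted p = 0.0008962), Vegfa (26.9 against 59.4 CPM, edgeR adjusted p = 0.03568), Vegfc, Dll4 and Ndp. Neither Angpt1 nor Angpt2 passed. Of 13 tested receptors 8 were higher, with Eng at 25.2 against 0.115 CPM, Acvrl1 at 6.61 against 0.310 CPM, Nrp2 at 206 against 17.0 CPM and Fzd4 at 27.8 against 3.94 CPM, and 4 were lower, including Tspan12, Unc5b and Plxnd1. Tgfb1, Pdgfb, Eng and Acvrl1 had at most 12 counts in a library of whole retina and entered through the microglia libraries. Pgf, Vegfc, Ndp, Tspan12 and Unc5b entered through whole retina. The direction of such genes was set by the filter, so the numbers higher and lower are not read here.

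Of the 18 endothelial identity genes only 6 entered this test, whose filter asks for enough counts in at least 3 libraries. Ecscr, at 30.1 against 0.216 CPM, Cd34, at 164 against 2.21 CPM, and Vwf, at 9.69 against 0.497 CPM, were higher in microglia, and Egfl7 was lower. Ecscr and Vwf entered through the microglia libraries alone, so how many genes of a list lay in each direction follows in part from the filter and is not read here. Barrier genes counted 2 higher (Ocln and Abcg2) and 3 lower (Mfsd2a, Itm2a and Slc2a1) of 8 tested. Pericyte and smooth muscle genes counted 3 higher (Tbx18, Tagln and Abcc9) and 3 lower (Ndufa4l2, Notch3 and Vtn) of 7. Here too, genes such as Mfsd2a and Tbx18 entered through a single group, which set their direction.

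At P7 and P60 whole retina has 1 library, so each microglia library was read as a percent of it. At P7, 8 of the 10 genes were below whole retina in all 3 microglia libraries, as were 44.6% of 20622 genes. Pecam1 was the only one above it in all 3 (30.5% of genes were), at 41.5, 42.9 and 34.5 CPM beside 14.1 CPM, a mean of 281%. Cdh5, at 12.1, 6.28 and 5.12 CPM beside 7.44 CPM, lay on both sides. Kdr (24.3, 23.5 and 17.5 CPM) was at 4.74 to 6.60% of whole retina, and Flt1 (4.54, 3.82 and 1.43 CPM) at 9.01 to 28.6%. Tek had 1, 2 and 0 counts. Cldn5 had no counts in any of the 3, so whole retina of P7 was at least 55.6-fold higher, taking 3 counts per library as the limit that a count of 0 allows.

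Rgs5 differed most between the microglia libraries of P7. It measured 17.4, 2.29 and 67.0 CPM, which is 23.7, 3.13 and 91.4% of whole retina. Replicate 3 also had the highest Pdgfrb (2.18 CPM, against 0.243 and 0 CPM) and the highest Cspg4 (2.66 CPM, against 1.95 and 0.934 CPM), so the summed level of the 3 pericyte genes ran from 3.23 to 71.9 CPM over the libraries. Of the other pericyte and smooth muscle genes, Abcc9 was also highest in replicate 3 (26.6 CPM, against 3.73 and 5.52 CPM). Anpep, Tagln, Cnn1, Ndufa4l2 and Atp13a5 were highest there too, at 1.23 to 3.62 CPM. Others were not: Vtn, Notch3, Kcnj8 and Myh11 had no counts there, and Mcam was at 2.66 CPM against 3.49 CPM in replicate 1. The 7 endothelial genes were not high with Rgs5: in replicate 3 Pecam1, Cdh5, Kdr, Flt1 and Tie1 each had their lowest level of the age and Tek and Cldn5 had no counts. Other vascular genes were mixed. Cav1, Egfl7 and Nos3 (5.60, 2.39 and 1.02 CPM) were highest in replicate 3, while Vwf and Ecscr (7.10 and 32.8 CPM) were lowest there.

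At P60, 7 of the 10 genes were below whole retina in all 3 microglia libraries (42.8% of 20511 genes were), and none was above it in all 3 (30.0% of genes were). Kdr (10.8, 15.3 and 27.1 CPM) was at 5.51 to 13.9% of whole retina and Flt1 (4.40, 7.64 and 4.63 CPM) at 4.86 to 8.45%. Rgs5 (0.0978, 7.13 and 2.67 CPM) was at no more than 7.04%, Pdgfrb had 2 counts in 1 library, and Cspg4 had none in any, so that whole retina was at least 10.1-fold higher. Single libraries carried several of the other values: Tek was at 4.29 CPM in replicate 2 and at 0 in the others, and Cdh5 was at 13.6 CPM in replicate 3 and at 0 in the others. Cldn5 measured 0, 0.0859 and 10.3 CPM, the last close to the 11.5 CPM of whole retina. Replicate 3 also had the highest Pecam1 (30.6 CPM), Kdr and Tie1 (5.25 CPM, against 2.54 and 2.06 CPM) of the age, while Flt1 and Tek were highest in replicate 2. Other endothelial genes were mixed. Ecscr and Egfl7 (57.2 and 3.83 CPM) were highest in replicate 3. Vwf, Nos3 and Esam (17.4, 7.90 and 2.49 CPM) were highest in replicate 2, and Cd34 (66.2 CPM) was lowest in replicate 3.

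As the median over those of the 10 genes with at least 1 CPM in whole retina, the level in microglia was 30.4 ± 16.7% of whole retina at e16.5 (SD, n = 3 libraries, 6 genes), 19.4 ± 3.77% at P7 (10 genes) and 5.66 ± 4.97% at P60 (10 genes). For comparison, markers of rods, the most numerous cells of the retina, were at 3.90 ± 0.805% at P7 and 3.35 ± 3.77% at P60, and markers of retinal progenitors at 5.80 ± 2.23% at e16.5. Other non-microglial marker sets lay on both sides of the 10 genes, some with wide spread. Ganglion cell markers were lower on average at each age (e16.5 19.8 ± 9.30%, P7 9.11 ± 3.67%, P60 3.45 ± 1.25%), with overlapping libraries at e16.5 and P60. Oligodendrocyte lineage markers were higher (e16.5 82.0 ± 50.5%, P7 24.1 ± 11.0%, P60 138.7 ± 72.55%). Fibroblast markers were lower in the embryo (10.4%) and higher later (P7 25.6 ± 11.65%, P60 75.4 ± 65.83%). The rod markers of e16.5 reached 36.6 ± 48.0%. The 6 genes of e16.5 leave out Cdh5, Tie1, Rgs5 and Tek, which were below 1 CPM in whole retina. In microglia these were at means of 8891, 984, 159 and 0% of it. At P60 the median was 34.4 ± 48.1% over the 7 endothelial genes and 0.422 ± 0.731% over the 3 pericyte genes. Among the 10 genes, the order of e16.5 and P7 turned with the genes taken: over those with at least 5 CPM in whole retina the medians were 7.19% and 13.6%. Leaving out a library gave 21.1 to 37.3% at e16.5 and 17.9 to 21.5% at P7. At P60 it gave 3.74% without replicate 3 and 8.47% without replicate 1. The part of other retinal cells in the vascular transcripts of the sorted libraries was not tested.

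**Figure D4:**
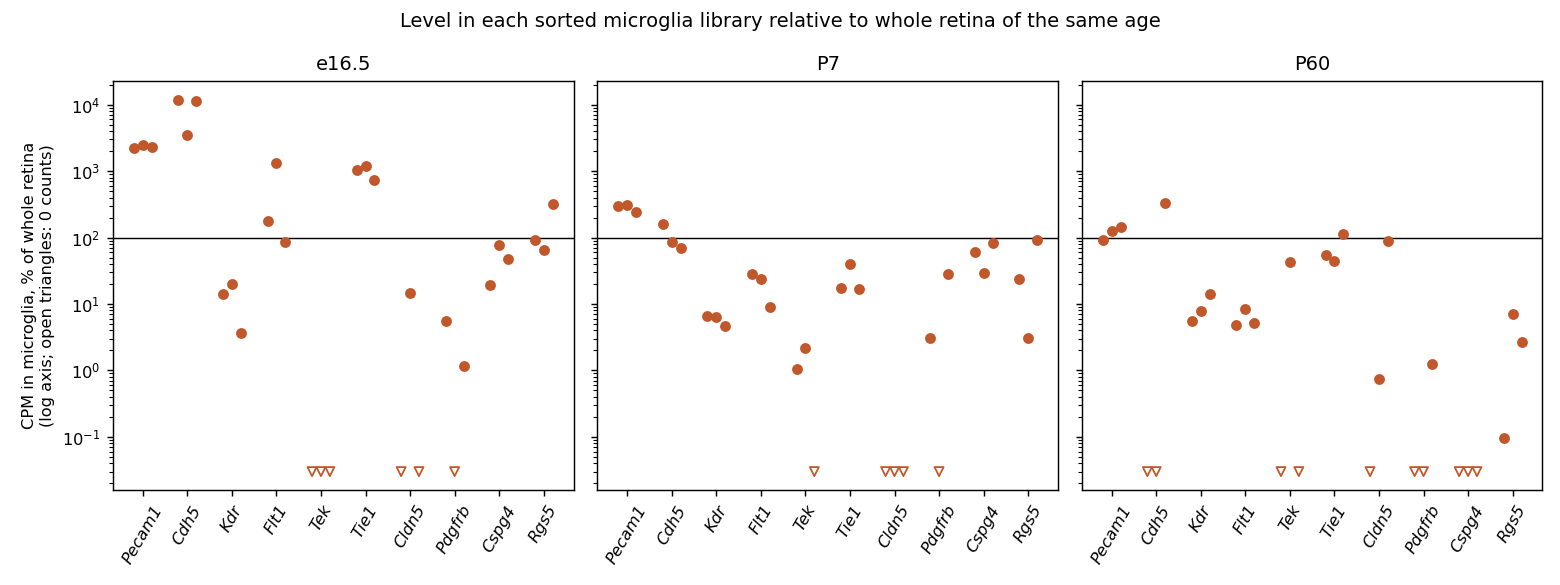
CPM of each gene in each sorted microglia library as a percent of whole retina of the same age, on a log axis, at e16.5, P7 and P60; open triangles stand for 0 counts and the line marks 100%. Pecam1 lies between 2234 and 2480% at e16.5 and between 90.6 and 146% at P60, and the open triangles show which genes had no counts.

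Cdh5 is a gene for which the count and the FPKM tell different things. In microglia of P7 its level was 7.83 ± 3.73 CPM (SD, n = 3), close to the 7.44 CPM of whole retina, but 11.5 ± 3.57 FPKM against 2.46 FPKM. FPKM divides by a length that the authors' pipeline set per library, and the ratio of the deposited values gives that length back. For Cdh5 it came to 810, 569 and 674 bases in the 3 microglia libraries of P7, and to 2374, 4007 and 3219 bases in those of e16.5. It was 4007 bases in the 1 microglia library of P60 with counts, 2711 bases in whole retina of P7 and 4008 bases at P60.

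Cdh5 lies on chromosome 8 at chr8:104101625-104144511 (GRCm38, plus strand), and the annotation (GENCODE) gives it 2 transcripts. Cdh5-201, of 3995 bases in 12 exons, spans the gene. Cdh5-202, of 346 bases in 2 exons, spans chr8:104111307-104113017 and begins within the first intron of Cdh5-201. The lengths of P7 microglia lie nearer to that of the short transcript than to that of the long one. An antisense gene, Gm29682, overlaps Cdh5, and the sources used here do not give whether counting used strand, so reads of the 2 cannot be told apart.

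**Figure D5:**
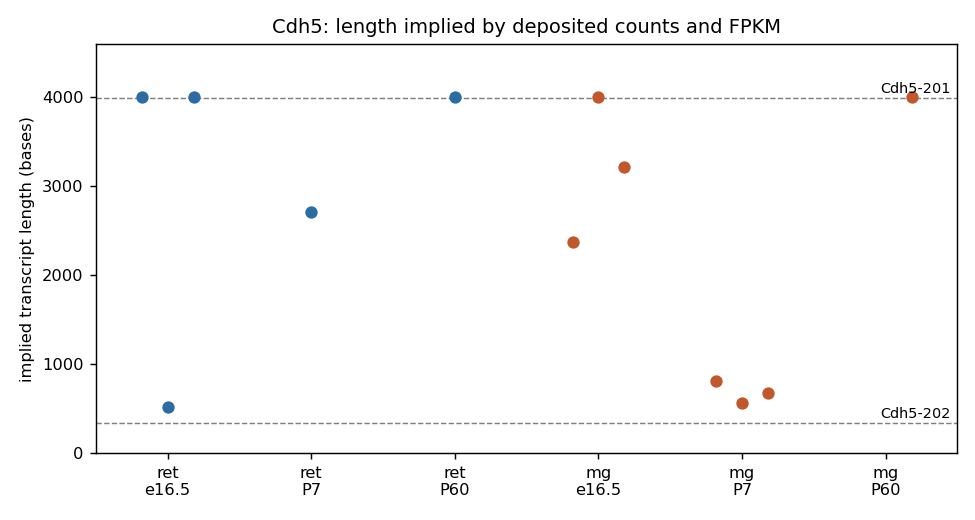
Transcript length of Cdh5 implied by the deposited counts and FPKM in each library with counts, in bases, for whole retina (ret, blue) and microglia (mg, orange); dashed lines are the annotated lengths of its 2 transcripts. The 3 microglia libraries of P7 lie between 569 and 810 bases. Several other libraries, at 4007 or 4008 bases, lie close to the length of the long transcript. At e16.5 the whole retina points rest on 1 to 5 counts each.

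Between ages, the 9 microglia libraries were tested in 1 fit over 16019 genes, which 7 of the 10 genes entered; Tek, Cldn5 and Pdgfrb were too low. Each pair of ages shares libraries with the others. From e16.5 to P7 none of the 7 passed (0.200% of genes did), with 2 at an unadjusted p under 0.05, Pecam1 and Rgs5, and 1, Rgs5, past the threshold by DESeq2. From P7 to P60 none passed either (1.35% of genes did), with 2 at an unadjusted p under 0.05, Cspg4 and Rgs5, and none past it by DESeq2, which gave Cspg4 no adjusted p. From e16.5 to P60, 1 of the 7 passed, Pecam1, which was lower at P60 (3.36% of genes passed, 2.50% lower).

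Pecam1 was between 75.0 and 83.2 CPM at e16.5, between 34.5 and 42.9 CPM at P7 and between 19.0 and 30.6 CPM at P60, so no library of an age overlapped those of another. This held for 14.0% of genes between e16.5 and P7, 24.0% between P7 and P60 and 26.2% between e16.5 and P60. Its log2 fold change from e16.5 to P60 was -1.62 (SE 0.359, edgeR adjusted p = 0.0324). Over the alternatives the log2 fold change ran from -1.79 to -1.43, and the adjusted p fell on both sides of the threshold. It was 3.277e-05 with DESeq2 and is 0.003175 in the authors' deposited table. With edgeR it was 0.06441 with total counts alone, 0.1067 with gene lengths as an offset, 0.07583 in a fit of these 2 ages only, and 0.04863 to 0.1008 with each library left out in turn. From e16.5 to P7 its log2 fold change was -1.01, with an adjusted p of 0.474 by edgeR. In whole retina the Pecam1 level was highest at P60, at 20.9 CPM, where the microglia libraries were lowest.

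Rgs5, at 0.328, 0.230 and 1.14 CPM in microglia of e16.5 and 17.4, 2.29 and 67.0 CPM at P7, did not overlap between these ages. Its log2 fold change was 5.60 (SE 1.516) with an edgeR adjusted p of 0.2596, but 0.0006293 with DESeq2; in the authors' deposited table the adjusted p is 0.0003023. Cspg4 was found in all 6 microglia libraries of e16.5 and P7, at 0.246 to 2.66 CPM, and in none of P60. Microglia of P7 were thus at least 6.77-fold higher than those of P60, with an edgeR adjusted p of 0.06409, while the authors' deposited table gives 0.0001895. Cspg4 entered this fit through the microglia libraries of P7, so its direction between P7 and P60 was set by the filter.

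Kdr gave log2 fold changes of -0.93 from e16.5 to P7 (edgeR adjusted p = 0.8503) and -0.26 from P7 to P60 (edgeR adjusted p = 0.864). Tie1 stayed between 1.35 and 5.25 CPM in all 9 microglia libraries. Flt1 and Cdh5 turned on single libraries. Without replicate 2 of e16.5 the log2 fold change of Flt1 from e16.5 to P7 was 0.14 in place of -1.82. Without replicate 3 of P60, Cdh5 had no counts at P60 and passed the edgeR test against P7 (adjusted p = 0.03741) and against e16.5 (adjusted p = 0.01523), which with all libraries it did not (0.8431 and 0.6686).

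Few related genes passed between the ages of microglia. None of the lists had a call from e16.5 to P7. From P7 to P60, 3 of 12 tested receptors were lower: S1pr1, from 191 to 22.4 CPM (log2 fold change -3.05, SE 0.461, edgeR adjusted p = 0.01103), the VEGF co-receptor Nrp2, from 314 to 104 CPM (-1.55, SE 0.288, edgeR adjusted p = 0.02946) and Plxnd1, from 13.9 to 0.630 CPM (-4.40, SE 0.909, edgeR adjusted p = 0.04263). From e16.5 to P60, S1pr1 and 2 of 7 barrier genes were lower: Slc2a1, from 156 to 41.9 CPM (edgeR adjusted p = 0.01995), and Itm2a, from 13.1 CPM to no counts (edgeR adjusted p = 0.0324). Itm2a, with at most 6 counts in a later library, entered through those of e16.5 alone, so its direction was set by the filter. The calls between ages were lost in several alternatives: 0 to 2 and 0 to 3 genes passed when each library was left out in turn.

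The ligands of the receptors stayed uncalled in microglia. Pdgfb had means of 26.8, 35.3 and 61.2 CPM at e16.5, P7 and P60, Tgfb1 85.4, 106.1 and 136.6 CPM, and Vegfa 26.9, 24.6 and 27.2 CPM. Angpt2 had means of 10.4, 3.18 and 3.46 CPM. Angpt1 turned on single libraries: it measured 2.54, 27.1 and 0.202 CPM at e16.5, 0.162, 0 and 4.78 CPM at P7, and 0.489, 1.03 and 0.801 CPM at P60. The norrin receptor Fzd4 had means of 27.8, 66.9 and 28.9 CPM, while Pgf was near 0. Ndp had means of 0.202, 0.113 and 0.903 CPM, the last resting on replicate 1 of P60 at 2.44 CPM, beside 0.0859 and 0.178 CPM in the others. Of the other lists, Cd34 (164, 213 and 118 CPM), Jam2 (94.6, 113.4 and 181 CPM), Nrp1 (110.7, 172.5 and 88.3 CPM) and Abcc9 (1.19, 12.0 and 15.5 CPM), did not pass either.

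The pattern of the 10 genes over all 14 libraries was summed as the mean of their standardised log2 levels. The gene most like it, among 14557 with at least 1 CPM in whole retina, was Plac9b, with a Pearson r of 0.932. Gabrr3 (0.924), Adgrl4 (0.922), Pkp1 (0.922), Slc6a7 (0.921), Kcnj8 (0.917), Slc6a12 (0.917), Igfbp7 (0.916), Lamc3 (0.909) and Bmp15 (0.909) followed. Plac9b measured 5.37 and 6.20 CPM in whole retina of P7 and P60. Igfbp7 measured 15.8 and 13.4 CPM there, and up to 1.54 CPM in microglia of P7. The 14 points share 6 groups and their depth, so this is a description. Of the 10 genes themselves, Tek (0.754), Rgs5 (0.751) and Flt1 (0.734) lay closest to their shared pattern and Pecam1 (0.022) farthest from it.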

How the data were processed

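RNA was sequenced in 9 libraries of sorted retinal microglia and 5 of whole retina. The submitters' processing notes name Salmon 0.9.1, DESeq2 1.20.0 and GRCm38.p6. The deposited table holds counts and FPKM per library, per the file headers, and no gene whose highest count is under 10. The deposited counts were treated as estimated counts and rounded. The deposited FPKM served for comparisons between genes and for gene lengths, scaled on 288 genes with a single transcript. The authors' own comparisons, deposited as log2 fold changes with adjusted p-values, are quoted for the p of 3 genes only.

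Counts were tested with edgeR 4.0.16 in R 4.3.3 (quasi-likelihood, TMM, filterByExpr, Benjamini-Hochberg over all genes tested, 0.05). The 9 microglia libraries formed 1 fit and the 6 libraries of e16.5 another. Libraries of whole retina at P7 and P60, 1 each, entered no test; ratios there add 0.5 CPM and are read against 2-fold. Intervals are 95% exact binomial, and 3 counts per library is the limit for a count of 0. Totals of 8996298 to 24361772 counts set the precision. Replicates were compared and none was a duplicate. The tests were checked on simulated data.

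The 10 genes, the lists and the marker sets were chosen with earlier results of these data known. From each related list, up to 3 genes with the largest rise and up to 3 with the largest fall past the test are named. Between ages of whole retina the bar was 2-fold, with at least 1 CPM at the age with the higher level. Where no gene passed the test, the 2 most abundant are named. Vegfa, Pdgfb, Angpt1, Angpt2, Pgf, Ndp and Fzd4 are always given, as are the 10 genes most alike in pattern. Alternatives were DESeq2 1.42.0, limma-voom (limma 3.58.1), RLE and total-count scaling, other filters and pseudocounts, gene lengths as an offset, FPKM, other sample sets, the replicate number as a block and leaving out each library. Positions are from GENCODE (GRCm38) and upstream sequences from RefSeq (GRCm38.p6).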

Additional observations from a re-analysis of the deposited data

Results flagged for a closer look

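Pecam1 between each pair of ages, and Cspg4 between e16.5 and P60, moved in opposite directions in microglia and in whole retina, every microglia library going one way and every whole retina library the other; the difference itself was not tested, since whole retina has 1 library at P7 and at P60. Values are log2 ratios of CPM + 0.5. Pecam1 changed by -0.98 in microglia and 1.92 in whole retina from e16.5 to P7, by -0.63 and 0.55 from P7 to P60, and by -1.62 and 2.48 from e16.5 to P60. Cspg4 changed by -1.16 in microglia and 0.88 in whole retina from e16.5 to P60. Its microglia libraries held 3, 13 and 9 counts at e16.5, the lowest equal to the limit for a count of 0, and none at P60. The share of all genes that moved in opposite directions in this way is not given here. Between the other pairs of ages Cspg4 moved the same way in both, being higher at P7 than at e16.5 and lower at P60 than at P7.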

How the results depend on the processing

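Of 482 alternative values of single genes, 455 kept their direction and side of the threshold, 10 lost a call, 12 gained one and 5 changed direction. The 5 were Cdh5 from e16.5 to P7 in microglia with gene lengths as an offset (1.454), Flt1 without replicate 2 of e16.5 (to P7 and to P60), Tie1 from e16.5 to P7 without replicate 2 of P7 and Kdr from P7 to P60 without replicate 1 of P60; none of these passed in either setting. Leaving out each library gave ranges of -2.326 to 0.139 and -1.533 to 0.931 for Flt1, -0.343 to 0.413 for Tie1 and -0.715 to 0.001 for Kdr in these comparisons. With DESeq2, 1 of the 10 genes and 2 related genes passed from e16.5 to P7, and 8 related genes passed in each of the comparisons with P60. With gene lengths as an offset, 1 related gene passed from P7 to P60, and 0 of the 10 and 0 related genes from e16.5 to P60. In a fit of the 2 ages alone, 1 related gene passed from P7 to P60 and 0 of the 10 from e16.5 to P60. With total counts alone, 0 of the 10 passed from e16.5 to P60, and 2 were past 2-fold in whole retina between P7 and P60. Under a filter of 5 CPM, 3 of the 10 and 23 related genes passed between microglia and whole retina at e16.5, fewer genes being tested. Leaving out each library in turn gave 0 to 1 of the 10 and 0 to 2 related genes from P7 to P60, and 0 to 2 and 0 to 3 from e16.5 to P60. The median level in microglia was 7.191% of whole retina at e16.5 and 13.61% at P7 over genes of at least 5 CPM, and at P7 15.33% with total counts alone and 23.79% from FPKM. Apart from the filter, the cause of these shifts was not tested.

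Same-numbered libraries correlated at 0.024 to 0.162, 0.065 to 0.195 and 0.034 to 0.145 in the 3 age comparisons and at 0.003 to 0.012 at e16.5, so the numbers were not taken to pair the samples, although between ages all 3 pairs correlated best with their own number. With the number as a replicate block, 0, 0, 1 and 6 of the 10 genes passed, the sixth being Cldn5 at e16.5, and 0, 3, 3 and 31 related genes; of all genes, 77 were called higher and 290 lower from P7 to P60, against 42 and 175 without it. With total counts alone, the median of all genes moved from 0.069 to 0.292 (P7 to P60) and from 0.06 to 0.251 (e16.5 to P60). Over all genes, higher and lower calls from e16.5 to P7 were 21 and 11 with edgeR, 159 and 169 with DESeq2 and 1 and 0 with gene lengths as an offset; from P7 to P60 they were 42 and 175, 414 and 840, and 9 and 65; from e16.5 to P60, 138 and 400, 682 and 1220, and 75 and 187. At counts as low as 8 to 22 over 3 embryonic libraries, ratios for Cdh5, Tie1, Tek and Rgs5 are wide, and genes with no counts allow only lower bounds.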
